A study of Mus musculus with 9 samples.

Results

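The change that both forms of hepatic ischaemia had in common was measured by RNA-seq of mouse liver, by setting both ischaemic groups together against sham surgery. The groups were ischaemia-reperfusion (IR, 3 libraries), ischaemic postconditioning (IPO, 3 libraries) and sham (3 libraries), so that 6 ischaemic libraries stood against 3 sham libraries, and these 9 make up the whole series. All were made from whole liver of C57BL/6 mice at 8 weeks of age, with no genetic change named in the labels. The labels give neither the length of the ischaemia nor the interval to sampling, and whether the replicates came from separate animals is not stated. Every p-value therefore reflects how much these libraries vary, and that variation may be technical. Levels are in FPKM, fragment counts normalised for the length of the transcript and the size of the library, as deposited by the authors. Of 11229 genes in the table, 9649 averaged 1 FPKM or more across all libraries and were tested with limma on log2(FPKM + 0.5). A gene had a shared change when the mean of the IR and IPO group means differed from the sham mean at a Benjamini-Hochberg adjusted p under 0.05 and when both group means lay on the same side of sham. That held for 26 genes of 9649.

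In ischaemia-reperfusion the blood supply of the liver is clamped and then released, and the return of flow adds an injury of its own through reactive oxygen species, activated Kupffer cells (the resident macrophages of the liver) and incoming leukocytes. In postconditioning the restored flow is interrupted again in short cycles at the start of reperfusion, and it is studied as a way to limit that injury. Sham animals undergo surgery without clamping. A shared change as defined here asks only for the same direction in IR and IPO, and its size in IPO may be small.

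Among the 26 genes, 14 were higher and 12 lower in both ischaemic groups, which is 0.145% and 0.124% of all genes tested. The call itself, before asking for the same direction, was met by 30 genes (0.311%), 16 higher and 14 lower. An unadjusted p under 0.05 was met by 1444 genes (15%). In 19 of the 26 (0.197% of genes tested) all 6 ischaemic libraries lay on one side of all 3 sham libraries, 10 above (0.104%) and 9 below (0.0933%). A separation of all 6 from all 3 libraries, whether called or not, was met by 464 of the 9649 genes (4.81%), with 148 higher (1.53%) and the rest lower (3.27%). Both group means lay on the same side of sham in 52.0% of all genes tested, 21.5% higher and 30.5% lower. When the 6 libraries were fitted as a single group, so that the difference between IR and IPO counted as spread, Gm20708 was the 1 gene called and 708 genes had an unadjusted p under 0.05. Single libraries also set the count of 26. Leaving out IR replicate 1 gave 41 genes and leaving out IR replicate 2 gave 13. With IPO replicate 2 removed there were 7, and with IPO replicate 3 removed there were 2. The count was 2 when sham replicate 1 was left out, 1 when sham replicate 2 was, and 200 when sham replicate 3 was. Of the 26 genes, Gm20708 alone was still called after removal of IPO replicate 3 or of sham replicate 2, and Gm20708 and Afmid were still called after removal of sham replicate 1.

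The liver markers were high in every library, with Alb (albumin) between 8826 and 17799 FPKM. Summed over genes, a library held 363429 to 379117 FPKM in IR, 375460 to 387000 in IPO and 369625 to 385855 in sham, and the read depth behind it is unknown. Sham replicate 3 stood apart from the other sham libraries. It had 13182 FPKM of Alb and 1270.4 FPKM of Cps1, which makes carbamoyl phosphate for the urea cycle, where sham replicates 1 and 2 had 9107 and 8826 FPKM of Alb and 558 and 568 FPKM of Cps1. The 10 most abundant genes held 15.7% of the summed FPKM on average in ischaemic libraries and 14.4% in sham libraries (exact permutation test over 84 splits, two-sided p = 0.0119, the smallest these 9 libraries allow). The description in the labels carries a number that is the same for all IR libraries and sham replicate 2, a different one for sham replicates 1 and 3, and yet another for all IPO libraries. What the number stands for is not stated, and IPO against sham cannot be told apart from it.

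**Figure D1:**
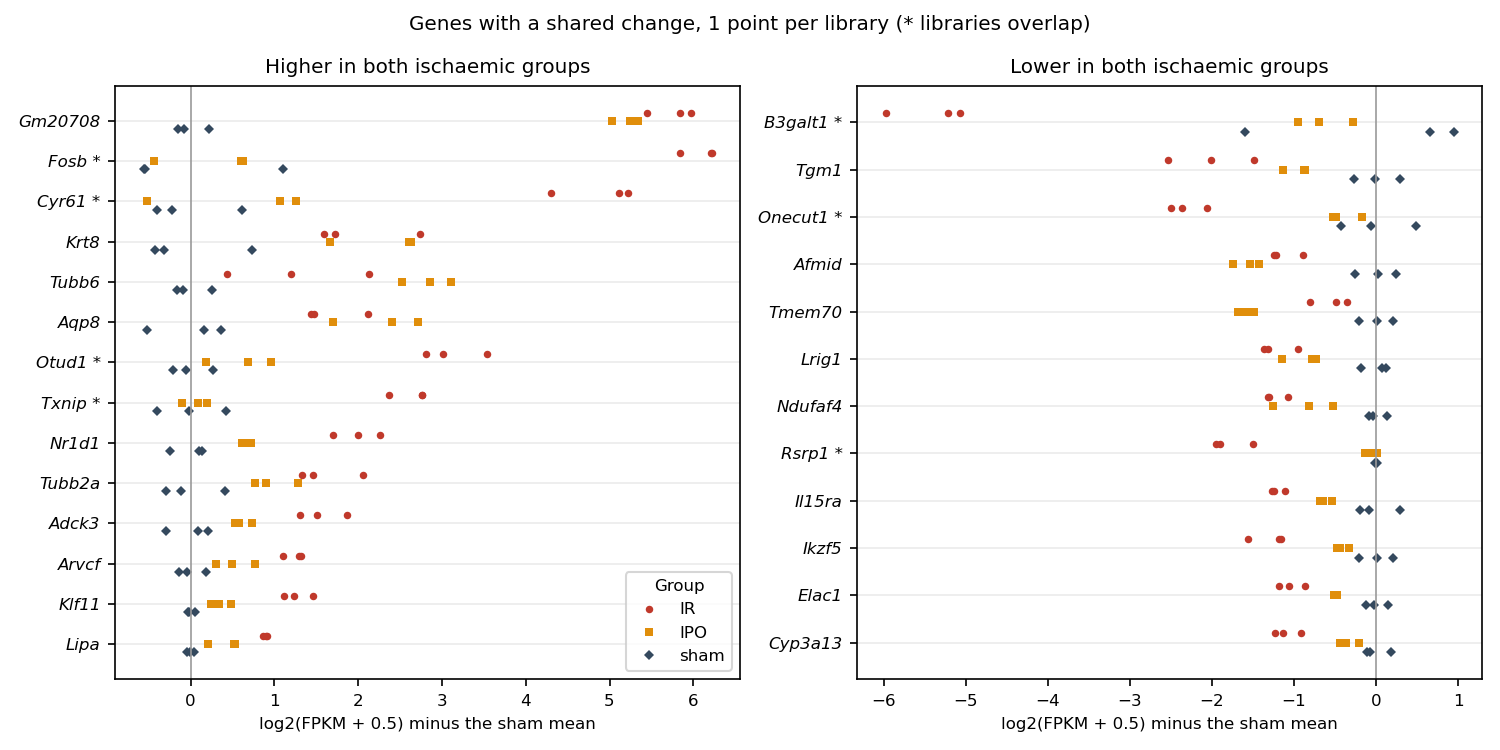
Each row is 1 of the 26 genes with a shared change and each point 1 library, IR as red circles, IPO as orange squares and sham as dark diamonds, with log2(FPKM + 0.5) minus the mean of the sham libraries on the horizontal axis. The 14 rises are on the left and the 12 falls on the right, ordered by the size of the change, and the 7 genes marked with an asterisk are those in which the IPO and sham libraries overlapped.

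The plot of all 26 genes by library shows 1 gene far from the rest. Gm20708 (ENSMUSG00000093485.1) was nearly absent from sham livers and abundant in both ischaemic groups. It lies on the plus strand at chr11:117809668-117839904 of the mm10 build and is annotated as a protein-coding readthrough, a transcript that joins the first exon of Syngr2, a synaptogyrin of membrane vesicles, to exons of Afmid. Afmid, also on the plus strand at chr11:117825924-117839908, encodes kynurenine formamidase, which acts in the breakdown of tryptophan. In GENCODE M21 the transcript has 3 exons and 1780 bases, of which 1566 (88.0%) lie in exons of the Afmid transcript ENSMUST00000073388.12, 136 (7.6%) in the first exon of the Syngr2 transcript ENSMUST00000026649.13 and 78 (4.4%) in neither. These shared bases make up 67.3% of that Afmid transcript. Few bases of the readthrough lie outside that Afmid transcript, and some of them are shown here. The readthrough also joins the end of Afmid exon 4 (chr11:117832576) to the start of Afmid exon 11 (chr11:117838493). It lacks the Afmid exons between, and that splice is not shown. Which bases the measured change rests on was not tested. The first sequence is the splice that joins the Syngr2 exon (chr11:117809774-117809803, lower case) to the third exon of Afmid (chr11:117832345-117832374, capitals). The second is the stretch at chr11:117832450-117832527 that is intron 3 of Afmid and exon in the readthrough, in capitals, with 15 bases of the exons on each side in lower case. Both are read 5′ to 3′ from the GENCODE M21 transcripts.
Gm20708 splice from Syngr2 to Afmid: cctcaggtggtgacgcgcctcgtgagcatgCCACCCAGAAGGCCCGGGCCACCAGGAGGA
Gm20708 kept intron of Afmid: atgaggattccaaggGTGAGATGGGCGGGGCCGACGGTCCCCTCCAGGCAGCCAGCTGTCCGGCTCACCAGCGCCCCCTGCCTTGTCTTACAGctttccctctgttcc

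Gm20708 had 42.8, 62.1 and 56.3 FPKM in IR livers and 37.3, 39.7 and 32.1 FPKM in IPO livers, against 0.399, 0.660 and 0.444 FPKM in sham livers. All 6 ischaemic libraries were above every sham library, and the IPO libraries were all below the IR libraries. The log2 change against sham was 5.48 (SE 0.15) for both groups together (limma adjusted p = 1.12e-07), 5.75 for IR and 5.21 for IPO. Each group alone was called (adjusted p = 2.76e-07 for IR and 7.08e-07 for IPO). The gene was called in all 18 alternatives tried, with log2 changes between 4.91 and 6.22. IPO was -0.54 log2 from IR (adjusted p = 0.0470).

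Afmid moved the other way. It had 14.5, 18.6 and 14.7 FPKM in IR livers and 12.7, 11.7 and 10.1 FPKM in IPO livers, against 29.1, 35.4 and 41.5 FPKM in sham livers, again with no overlap, and its log2 change was -1.34 (SE 0.14) (limma adjusted p = 0.0135), with -1.12 in IR and -1.57 in IPO, each called alone. When the levels of Afmid and Gm20708 were summed, a step chosen after seeing the data, the direction turned. The sum was 57.3, 80.6 and 71.1 FPKM in IR livers and 50.0, 51.4 and 42.2 FPKM in IPO livers, against 29.5, 36.1 and 41.9 FPKM in sham livers. Its log2 change was 0.69 (SE 0.15, adjusted p = 0.0871), with 0.95 in IR (adjusted p = 0.0110) and 0.42 in IPO (adjusted p = 0.350). Gm20708 made up 74.7% to 79.3% of the sum in the 6 ischaemic libraries and 1.06% to 1.83% in the 3 sham libraries. No source used here says how the program of the authors divided reads between overlapping gene models, so the separate levels of Afmid and Gm20708 are uncertain. Syngr2 itself had 8.43, 15.2 and 8.88 FPKM in IR livers and 7.06, 10.6 and 7.40 FPKM in IPO livers, against 5.92, 8.10 and 19.3 FPKM in sham livers, and its adjusted p was 0.935. Of the enzymes next to Afmid in tryptophan breakdown, chosen after their values were seen, Tdo2, the oxygenase before it, had 414, 543 and 619.5 FPKM in IR livers and 437, 449 and 399.9 FPKM in IPO livers, against 642, 666 and 814 FPKM in sham livers (log2 -0.58, adjusted p = 0.110). Kmo, Kynu and Haao, which act after it, had log2 changes of -0.07, -0.07 and 0.09, and none was called (adjusted p = 0.928, 0.883 and 0.776).

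**Figure D2:**
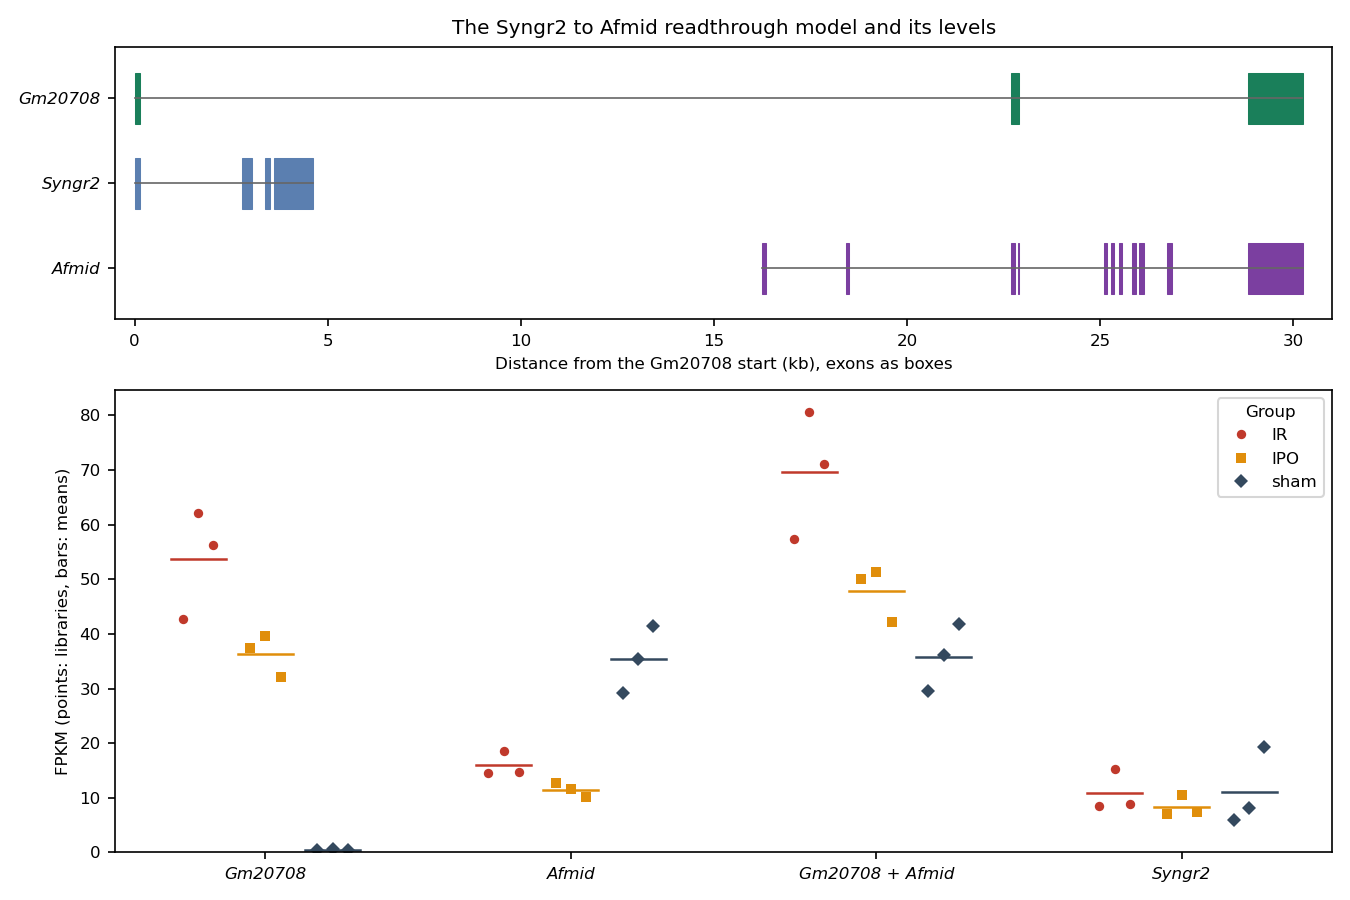
The upper panel draws the exons of Gm20708 and of 1 transcript each of Syngr2 and Afmid as boxes to scale, by distance in kilobases from the start of Gm20708. The lower panel plots the FPKM of each library (points) and the group means (bars) for Gm20708, Afmid, their sum and Syngr2, in the order IR, IPO, sham, with Gm20708 below 1 FPKM in the 3 sham libraries and above 30 FPKM in the 6 ischaemic ones.

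The 10 rises without overlap included a keratin, 2 tubulins and a cadherin-binding protein. Krt8 (chr15:101996711-102004342), the keratin that forms the intermediate filaments of simple epithelia with its partner Krt18, had 603, 298 and 272 FPKM in IR livers and 285, 561 and 549.6 FPKM in IPO livers, against 72.2, 66.9 and 150.3 FPKM in sham livers. The lowest ischaemic library was above the highest sham library, which was sham replicate 3. Its log2 change was 2.16 (SE 0.35) (limma adjusted p = 0.0461), with 2.02 in IR and 2.30 in IPO, and the difference between the ischaemic groups was 0.28 (SE 0.40) (adjusted p = 0.650). Krt18 (chr15:102028216-102032026), looked at because it is the partner of Krt8, had 526, 242 and 223 FPKM in IR livers and 286, 503 and 538 FPKM in IPO livers, against 112, 125 and 143 FPKM in sham livers. The libraries did not overlap, and the log2 change of 1.51 was not called (adjusted p = 0.0658). Cholangiocytes, the bile duct cells that carry Krt19 and Krt7 beside Krt8, are one source of keratin in liver. Of 9 cholangiocyte markers 4 were tested and 0 were called by limma, with 0 at an unadjusted p under 0.05, beside 15% of all genes. Their summed level was 33.8 to 42.3 FPKM in IR, 26.4 to 37.6 FPKM in IPO and 22.3 to 28.2 FPKM in sham. Epcam, one of them, was between 0.592 and 1.62 FPKM in all 9 libraries, and others were less even. Sox9 had 4.686 to 25.87 FPKM in IR, 1.771 to 2.703 FPKM in IPO and 2.777 to 5.273 FPKM in sham. Its highest level was in IR replicate 1, as was that of Krt8, while every IPO library was below every sham library. Spp1 had 12.61 to 24.98 FPKM in IR, 20.60 to 28.57 FPKM in IPO and 12.81 to 19.74 FPKM in sham. The part of cholangiocytes in the Krt8 result was not tested. In whole liver, more or fewer cells of a type and more or less RNA per cell cannot be told apart.

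Tubb6, a beta tubulin, was the one of the 14 rises whose IPO level was furthest above that of IR. It had 19.98, 5.86 and 10.3 FPKM in IR livers and 26.4, 40.1 and 33.6 FPKM in IPO livers, against 3.92, 3.69 and 5.10 FPKM in sham livers, so that every IPO library was above every IR library and every IR library above every sham library. Its log2 change was 2.04 (SE 0.31) (limma adjusted p = 0.0353), and it was the 1 gene of the 26 that was not called for IR alone (1.25, adjusted p = 0.0517), while it was called for IPO alone (2.83, adjusted p = 0.0209). Tubb2a (chr13:34074301-34078008), another beta tubulin, had 203, 122 and 134 FPKM in IR livers and 82.8, 90.7 and 118 FPKM in IPO livers, against 44.6, 64.5 and 39.2 FPKM in sham livers. All ischaemic libraries were above sham, and the order of the groups was the reverse of that of Tubb6, with 1.62 in IR and 0.98 in IPO. Its combined log2 change was 1.30 (SE 0.21) (adjusted p = 0.0455). Tubb2b (chr13:34127008-34130354) is its near-identical neighbour, so reads may have been split between them in a way that the files do not show. Tubb2b had a change of the same sign that was not called (1.31, adjusted p = 0.0741). The other tubulins looked at, chosen after values were seen, were not called. Tuba1a, Tuba1b, Tuba1c, Tubb4b and Tubb5 had log2 changes of 0.28, 0.49, 0.23, 0.30 and 0.08, and each overlapped between the groups.

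Arvcf (chr16:18348182-18407076), an armadillo-repeat protein that binds cadherins, rose at a low level. It had 2.76, 2.35 and 2.82 FPKM in IR livers and 1.14, 1.77 and 1.38 FPKM in IPO livers, against 0.790, 0.712 and 1.01 FPKM in sham livers and a log2 change of 0.88 (SE 0.15) (limma adjusted p = 0.0491), the one closest to the threshold among the 26. Tgm1 (chr14:55700009-55713492), a transglutaminase that cross-links proteins in epithelia, was the largest fall without overlap. It had 2.39, 0.898 and 1.51 FPKM in IR livers and 3.20, 3.94 and 3.91 FPKM in IPO livers, against 7.49, 9.37 and 6.21 FPKM in sham livers, with a log2 change of -1.48 (SE 0.22) (adjusted p = 0.0313), and the fall was larger in IR (-2.01) than in IPO (-0.96, difference adjusted p = 0.0181).

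Genes of transport, lipid handling and mitochondria moved in both directions. Aqp8 (chr7:123462291-123468004), the aquaporin of hepatocyte membranes, had 23.3, 14.3 and 14.7 FPKM in IR livers and 28.4, 17.3 and 35.6 FPKM in IPO livers, against 5.62, 3.32 and 6.57 FPKM in sham livers. The lowest ischaemic library was well above the highest sham library, and the change held in each group alone (1.67, adjusted p = 0.0127 for IR, and 2.27, adjusted p = 0.0270 for IPO). The combined log2 change was 1.97 (SE 0.27) (limma adjusted p = 0.0279), and IPO minus IR was 0.60 (SE 0.31) (adjusted p = 0.199). Lipa (chr19:34492318-34527474), the lysosomal acid lipase, had 84.1, 86.9 and 85.9 FPKM in IR livers and 52.9, 66.5 and 65.9 FPKM in IPO livers, against 44.7, 47.3 and 45.7 FPKM in sham livers. The 3 groups stood in separate bands, and the combined change was 0.65 (SE 0.10) (adjusted p = 0.0385), the smallest of the 26. Adck3 (chr1:180165238-180199602), also called Coq8a and needed for coenzyme Q synthesis, had 36.97, 47.5 and 32.3 FPKM in IR livers and 21.4, 18.5 and 19.1 FPKM in IPO livers, against 13.5, 10.2 and 14.7 FPKM in sham livers. Its change was 1.08 (SE 0.15) (adjusted p = 0.0279) and was larger in IR (1.56) than in IPO (0.61, difference adjusted p = 0.00681).

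Both called genes for the assembly of mitochondrial complexes fell. Tmem70 (chr1:16665207-16678275), an assembly factor of ATP synthase, had 14.8, 18.4 and 20.3 FPKM in IR livers and 8.40, 7.79 and 9.02 FPKM in IPO livers, against 26.3, 30.2 and 22.5 FPKM in sham livers. The IPO libraries were the lowest, the IR libraries lay between, and each group was called alone (-0.55, limma adjusted p = 0.0498 for IR, and -1.58, adjusted p = 0.00931 for IPO). The combined log2 change was -1.07 (SE 0.13) (adjusted p = 0.0246), and the fall was larger in IPO (difference -1.03, adjusted p = 0.00304). Ndufaf4 (chr4:24898083-24905001), an assembly factor of complex I, had 2.83, 2.33 and 2.32 FPKM in IR livers and 2.44, 4.37 and 3.48 FPKM in IPO livers, against 6.30, 7.15 and 6.07 FPKM in sham livers. No ischaemic library reached the sham range, and the change was -1.05 (SE 0.16) (adjusted p = 0.0377), with -1.23 in IR and -0.86 in IPO and no called difference between them (adjusted p = 0.183). Of 26 nuclear-encoded oxidative phosphorylation genes tested, limma called 0, beside 0.311% of all genes. An unadjusted p under 0.05 was met by 0 of them, beside 15% of all genes. Among them 12 had both group means below sham and 2 had both above, with a median log2 change of -0.05 beside -0.04 over all genes. Cyp3a13 (chr5:137892932-137921619), a cytochrome P450 of the family that oxidises drugs and steroids, had 82.6, 103 and 88.3 FPKM in IR livers and 169, 143 and 150.1 FPKM in IPO livers, against 181, 185 and 219.9 FPKM in sham livers. Its change was -0.72 (SE 0.12) (adjusted p = 0.0455). It was the 1 member called among 25 tested P450 genes of families 1 to 3, beside 0.269% of all genes with a shared change.

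Regulators of transcription and signalling made up most of the remainder. Nr1d1 (chr11:98767932-98775333), which encodes REV-ERB alpha, a repressor in the circadian clock, had 50.9, 42.5 and 34.4 FPKM in IR livers and 15.97, 17.2 and 16.1 FPKM in IPO livers, against 11.3, 8.57 and 10.998 FPKM in sham livers. The bands of the 3 groups were separate, and the change was 1.32 (SE 0.14) (limma adjusted p = 0.0135), with 1.99 in IR and 0.66 in IPO. It was the 1 clock gene called of 16 tested, beside 0.269% of all genes with a shared change. Its paralog Nr1d2 had a log2 change of 0.16 (adjusted p = 0.786). Klf11 (chr12:24651371-24662774), a Krüppel-like transcription factor, had 9.49, 8.05 and 7.32 FPKM in IR livers and 3.77, 4.08 and 4.56 FPKM in IPO livers, against 3.24, 3.07 and 3.05 FPKM in sham livers and a change of 0.81 (SE 0.11) (adjusted p = 0.0279). The IPO libraries were above sham by a narrow margin and the IR libraries by a wide one (0.35 and 1.27 log2). Ikzf5 (chr7:131388652-131410521), a zinc finger factor of the Ikaros family, had 1.24, 1.80 and 1.77 FPKM in IR livers and 3.58, 3.26 and 3.18 FPKM in IPO livers, against 4.65, 5.40 and 3.93 FPKM in sham livers and a change of -0.86 (SE 0.14) (adjusted p = 0.0461). Of its exon bases 81.3% overlap Pstk on the opposite strand. The libraries were made with a stranded kit, and no source used here says whether the strand was used in counting.

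Lrig1 (chr6:94604529-94700158), a membrane protein that restrains ErbB receptor signalling, had 2.92, 3.92 and 2.81 FPKM in IR livers and 4.64, 4.44 and 3.34 FPKM in IPO livers, against 8.76, 8.44 and 6.96 FPKM in sham livers. Every ischaemic library was lower than every sham library, with -1.21 in IR and -0.89 in IPO, and IPO minus IR was 0.32 (SE 0.17) (limma adjusted p = 0.203). The combined change was -1.05 (SE 0.15) (adjusted p = 0.0279). Il15ra (chr2:11705290-11734317), the receptor chain that presents interleukin 15, had 2.71, 3.08 and 2.77 FPKM in IR livers and 4.83, 4.45 and 4.31 FPKM in IPO livers, against 6.76, 6.26 and 8.95 FPKM in sham livers and a change of -0.92 (SE 0.13) (adjusted p = 0.0279). Elac1, of the endonuclease family that processes tRNA ends, had 2.19, 1.85 and 1.65 FPKM in IR livers and 2.97, 2.94 and 3.03 FPKM in IPO livers, against 4.91, 4.34 and 4.03 FPKM in sham livers and a change of -0.77 (SE 0.12) (adjusted p = 0.0353). In both genes IPO lay between IR and sham, apart from each.

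Over the 19 genes without overlap the median size of the log2 change was 1.25 in IR and 0.86 in IPO, against the same sham libraries. IPO and IR differed from each other in 13 of the 19 (limma adjusted p under 0.05, a call made in 22.1% of all genes tested). The 19 were chosen by calls in the same fit, with the same estimate of spread, which favours such a difference. No difference between the ischaemic groups was called in Krt8, Aqp8, Tubb2a, Afmid, Lrig1 and Ndufaf4. A p that misses the threshold does not show equal levels, and the estimated differences of these 6 genes ran from -0.63 to 0.60 log2.

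In the other 7 genes with a shared change the IPO libraries overlapped with the sham libraries, while the IR libraries stood apart from both. Fosb (chr7:19302696-19310051), a subunit of the AP-1 transcription factor, had 58.3, 45.2 and 58.7 FPKM in IR livers and 0.0864, 0.723 and 0.702 FPKM in IPO livers, against 0.0442, 0.0389 and 1.21 FPKM in sham livers. The IR libraries were far above all others, the IPO and sham libraries shared one range, and the change was 6.09 in IR (limma adjusted p = 0.000328) and 0.26 in IPO (adjusted p = 0.866). Cyr61 (chr3:145646976-145649981), a secreted matricellular protein, had 41.5, 72.9 and 78.5 FPKM in IR livers and 0.979, 4.58 and 3.94 FPKM in IPO livers, against 1.12, 1.32 and 2.76 FPKM in sham livers, with 4.88 log2 in IR and 0.60 in IPO. Otud1 (chr2:19657752-19660583), a deubiquitinase, had 11.7, 13.5 and 19.5 FPKM in IR livers and 1.47, 2.88 and 2.28 FPKM in IPO livers, against 1.003, 1.16 and 1.58 FPKM in sham livers, with 3.12 in IR and 0.61 in IPO. Txnip (chr3:96557957-96561883), the thioredoxin-interacting protein, had 81.9, 108 and 108 FPKM in IR livers and 14.4, 17.8 and 16.4 FPKM in IPO livers, against 11.6, 15.2 and 20.9 FPKM in sham livers, with 2.63 in IR and 0.06 in IPO. In these 4 rises the combined change of 1.34 to 3.18 is the mean of a large IR value and a small IPO value.

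The 3 falls of the same kind were B3galt1, Onecut1 and Rsrp1. B3galt1 (chr2:67565871-68122689), a galactosyltransferase, had 0.267, 0.941 and 0.802 FPKM in IR livers and 39.4, 24.4 and 29.4 FPKM in IPO livers, against 92.5, 75.7 and 15.5 FPKM in sham livers. Sham replicate 3 was far below the other sham libraries and below every IPO library, and the change was -5.42 in IR and -0.64 in IPO. Onecut1 (chr9:74861921-74891781), which encodes the hepatocyte factor HNF6, had 1.30, 1.14 and 1.71 FPKM in IR livers and 7.69, 6.11 and 5.91 FPKM in IPO livers, against 12.4, 8.40 and 6.39 FPKM in sham livers, with -2.31 in IR and -0.40 in IPO. It was the 1 member called among 20 hepatocyte transcription factors, beside 0.269% of all genes with a shared change. Of its exon bases 52.8% overlap the long non-coding Gm20649 on the same strand, so its level is uncertain. Rsrp1 (chr4:134923592-134927671) had 5.04, 4.86 and 6.86 FPKM in IR livers and 18.4, 19.7 and 20.5 FPKM in IPO livers, against 20.04, 20.3 and 20.5 FPKM in sham livers, with -1.79 in IR and -0.05 in IPO. IPO alone was called in 0 of these 7 genes, beside 0.228% of all genes. IPO and IR differed in all 7, beside 22.1% of all genes, and the choice of these genes by calls in the same fit favours that.

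Each ischaemic group was also set against sham alone, with the same 3 sham libraries in both comparisons. For IR 1109 genes were called (11.5%), 372 higher (3.86%) and 737 lower (7.64%), and for IPO 22 genes (0.228%), 12 higher and 10 lower. Of the 26 genes 25 were called for IR alone, where the combined call already contains the IR libraries. For IPO alone 5 were called, namely Gm20708, Aqp8, Tubb6, Afmid and Tmem70, and all but Tubb6 were called in each group alone. The change was larger in IR in 21 of the 26 genes and larger in IPO in 5. The same share over all genes tested is not given here. A large IR change can meet the combined call by itself, so the choice of genes favours this count. Of the 26 genes, 24 were listed in the authors' deposited tables for IR against sham, 12 for IPO against sham and 10 for both. Those tables were made from the same FPKM values and add no independent evidence.

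**Figure D3:**
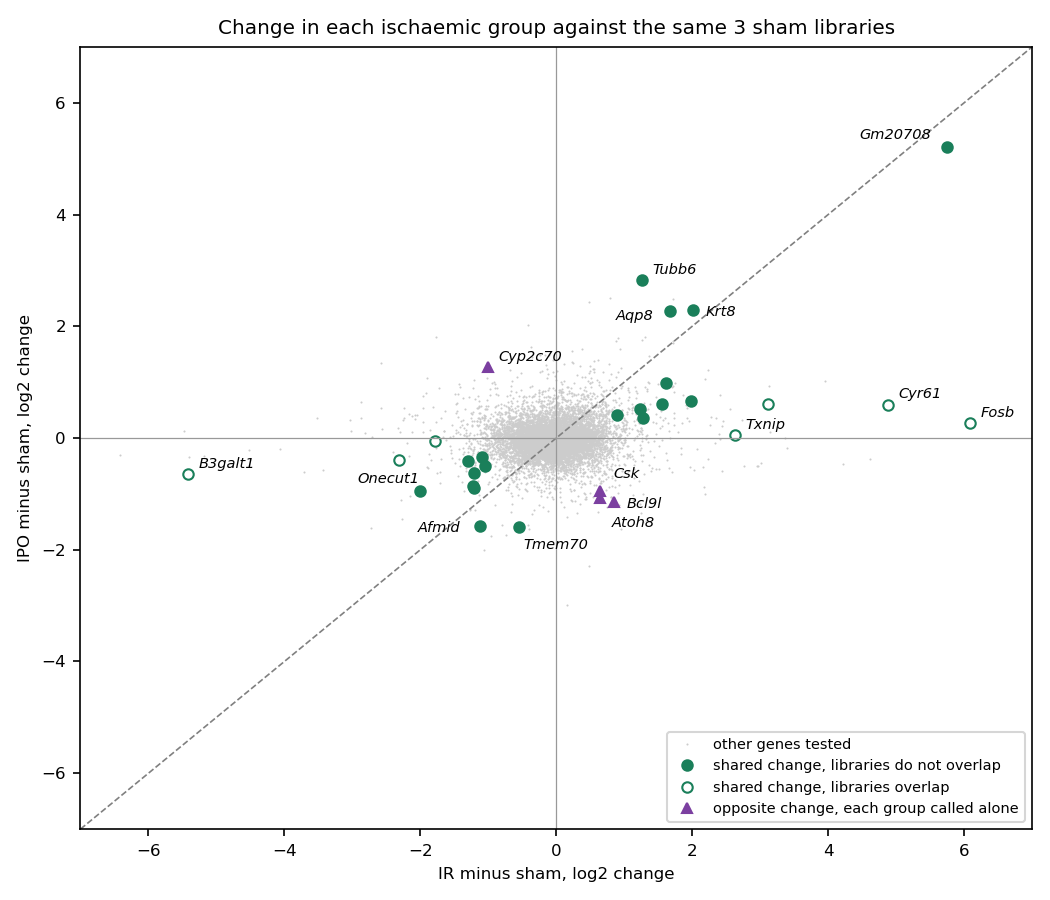
Each point is 1 of the 9649 genes tested, with the log2 change of IR minus sham on the horizontal axis and of IPO minus sham on the vertical axis, and the dashed line marks equal change; both axes use the same sham libraries. Filled green circles are the 19 genes without overlap, open green circles the 7 with overlap, which lie close to the horizontal axis, and purple triangles the 4 genes called in opposite directions.

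A further 4 genes were called in the combined comparison although the 2 group means lay on opposite sides of sham. Nr4a1 and Ier2, both immediate early genes, had 3.40 and 2.96 log2 in IR and -0.17 and -0.49 in IPO. Serpina3n, an acute phase protease inhibitor, had 173, 170.5 and 214 FPKM in IR livers and 1564, 1409 and 1209.7 FPKM in IPO livers, against 1688, 1548 and 840.3 FPKM in sham livers. Its IPO and sham libraries overlapped and its IR libraries were far lower. Rpp38, a subunit of ribonuclease P, had -1.66 log2 in IR and 0.13 in IPO.

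Some changes cancel in the combined comparison. In 4 genes each group alone was called against sham, in opposite directions. Cyp2c70, the mouse enzyme that makes muricholic acids, had 46.7, 52.7 and 56.6 FPKM in IR livers and 347, 239 and 195 FPKM in IPO livers, against 108, 115 and 91.1 FPKM in sham livers. The IR libraries were all lower than sham (-0.999 log2, limma adjusted p = 0.0168) and the IPO libraries all higher (1.28, adjusted p = 0.0441). Bcl9l, a coactivator of Wnt signalling, Csk, the kinase that inhibits Src family kinases, and Atoh8, a basic helix-loop-helix factor, went the other way. Csk had 23.3, 23.4 and 20.8 FPKM in IR livers and 6.24, 7.54 and 7.55 FPKM in IPO livers, against 11.96, 15.7 and 14.9 FPKM in sham livers. The changes in IR were 0.85 for Bcl9l, 0.65 for Csk and 0.64 for Atoh8, and those in IPO were -1.14, -0.95 and -1.06. The combined adjusted p of these 4 genes was at least 0.482.

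The threshold lay within a run of close values. The largest adjusted p among the called genes was 0.0491 and the smallest outside was 0.0507, reached by 8 genes. Tnfrsf12a, the receptor of the cytokine TWEAK, had 33.9, 16.2 and 21.4 FPKM in IR livers and 46.7, 105 and 88.2 FPKM in IPO livers, against 15.4, 11.9 and 11.8 FPKM in sham livers and a log2 change of 1.65. Saa4, a constitutive serum amyloid A, had 38.6, 65.7 and 106 FPKM in IR livers and 179, 131 and 137 FPKM in IPO livers, against 319, 417 and 239 FPKM in sham livers and -1.69. Both separated all 6 ischaemic libraries from all 3 sham libraries, as did Nnmt, a methyltransferase of nicotinamide (-0.93), and Idh3a, a subunit of the mitochondrial isocitrate dehydrogenase (-0.61). In Stom (0.76) and L3hypdh (-0.68) the libraries were separate too, and in Cyp2b10 (-2.87) and Ifrd1 (1.32) they overlapped.

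Gene lists showed few called members, and their directions in both groups were read against the 21.5% higher and 30.5% lower over all genes. Of 47 lists, 5 had a called member with a shared change, 1 each, beside 0.269% of all genes tested. These were Fosb among the immediate early genes, Nr1d1 among the clock genes, Cyr61 among the matrix and YAP targets, Cyp3a13 among the P450 genes and Onecut1 among the hepatocyte factors. Of 27 proteasome subunits, which form the protease that degrades ubiquitin-tagged proteins, 22 had both group means below sham (81.5%) and 1 had both above. Their median log2 change was -0.18, with -0.17 in IR and -0.19 in IPO. Limma called 0 members, and 4 of the 27 had an unadjusted p under 0.05, beside 15% of all genes. Psma6 had 69.9, 84.4 and 92.7 FPKM in IR livers and 76.3, 78.3 and 89.3 FPKM in IPO livers, against 95.9, 102 and 93.5 FPKM in sham livers, a gap too small to pass the test (log2 -0.25, adjusted p = 0.337). The number of subunits below sham in both groups stayed between 20 and 26 when single libraries were left out, and the median between -0.12 and -0.23. Of 21 genes of the unfolded protein response 15 had both means below sham (71.4%) and 0 above, with a median of -0.20. Without sham replicate 2 that became 4 below and 8 above, with a median of 0.12.

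Among 23 proteins secreted by hepatocytes, 18 had both group means above sham (78.3%) and 0 had both below, with a median log2 change of 0.14 for both groups together, 0.17 in IR and 0.14 in IPO. Limma called 0 of them, and 3 had an unadjusted p under 0.05. Ttr, which carries thyroid hormone and retinol-binding protein, had 1814, 1746 and 2045 FPKM in IR livers and 1851, 1803 and 1807 FPKM in IPO livers, against 1518, 1367 and 1626 FPKM in sham livers, with no overlap (log2 0.30, adjusted p = 0.212). Leaving out single libraries gave 16 to 19 members above sham in both groups. Of 30 complement and coagulation factors 15 had both means above sham (50.0%) and 2 below, and limma called 0, with 1 at an unadjusted p under 0.05. In the combined comparison 15% of all genes had such a p. The acute phase genes, which the liver makes in inflammation, did not share this direction. Of 25 tested, 13 had both means below sham and 0 above, with a median of -1.43 in IR and -0.03 in IPO, and limma called 22 lower in IR alone, beside 7.64% of all genes. In IPO alone it called 0 lower, beside 0.104% of all genes. An unadjusted p under 0.05 was met by 22 of the 25 in the combined comparison, which contains the IR libraries, beside 15% of all genes. In IPO alone 4 had such a p, and the share of all genes for IPO alone is not given here. The members with separate libraries were Saa4, Lbp, Orm3 and Itih3, 4 of 25 beside 3.27% of all genes separate and lower, and none was called in the combined comparison. Lbp, which binds bacterial lipopolysaccharide, had 33.1, 44.2 and 37.3 FPKM in IR livers and 48.8, 44.9 and 43.3 FPKM in IPO livers, against 77.2, 87.5 and 53.9 FPKM in sham livers.

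Markers of Kupffer cells had both group means above sham in 13 of 15 members (86.7%), with a median of 0.32, 0.55 in IR and 0.10 in IPO. Limma called 0, with 3 at an unadjusted p under 0.05, which was met by 15% of all genes. The number above sham in both groups was 6 and the median 0.04 without IR replicate 3. This library had 129 FPKM of Cd5l, a Kupffer cell marker, and 159 FPKM of Cd74, an antigen presentation gene, the highest of the 9. The summed level of the Kupffer cell list was 209 to 725 FPKM in IR, 235 to 265 FPKM in IPO and 198 to 262 FPKM in sham. Of 17 sinusoidal endothelial markers 9 had both means above sham and 0 below, and without sham replicate 3 these were 5 and 4. Of 7 tested neutrophil markers 0 had both means above sham, 2 had both below and 5 had them on opposite sides. Of 12 stellate cell and fibroblast markers 9 had both means above sham (75.0%) and 1 below, with a median log2 change of 0.15. Limma called 0 of them, and 3 had an unadjusted p under 0.05. Without IR replicate 3, or without IPO replicate 2, 6 had both means above sham. The 2 group means lay on opposite sides of sham in 48.0% of all genes, and in most members of 15 of the 36 lists with at least 10 tested. Among those 36 lists the largest shares were 11 of 13 mitochondrially encoded transcripts (median -0.21 in IR and 0.14 in IPO), 20 of 25 genes of fatty acid oxidation (0.31 and -0.35) and 27 of 34 ribosomal protein genes (-0.20 and 0.08).

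**Figure D4:**
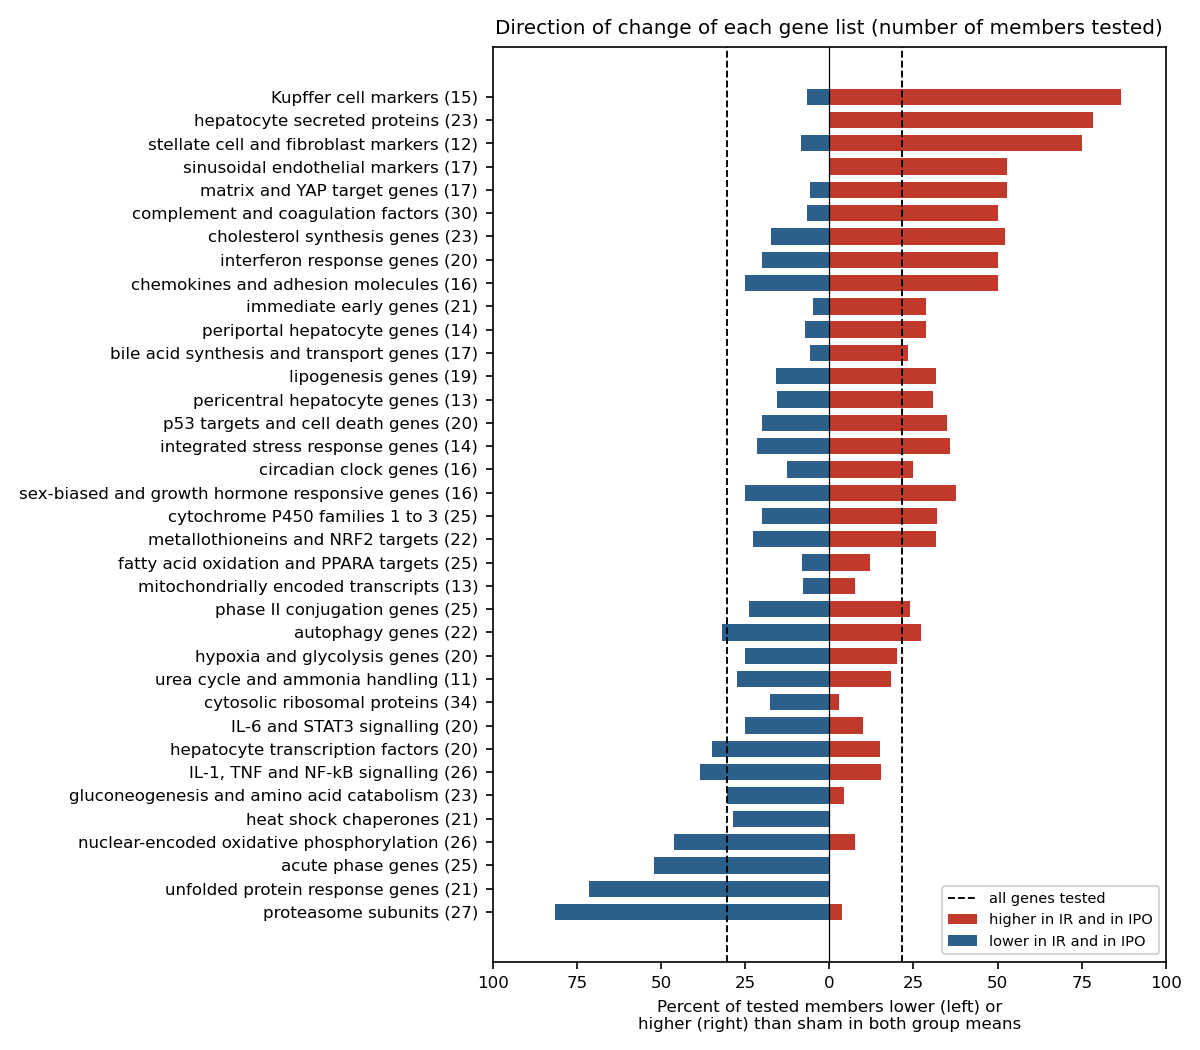
For each list with at least 10 tested members, the bars give the percent of members whose IR mean and IPO mean were both higher than sham (red, right) or both lower (blue, left), with the number of members tested in brackets. The dashed lines mark the shares over all genes tested, 21.5% higher and 30.5% lower, which the Kupffer cell markers and hepatocyte secreted proteins at the top, with the stellate cell and fibroblast markers below them, and the proteasome subunits at the bottom exceed by more than the other lists do.

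Sham replicate 3 had the widest effect on what was called as shared. Without it, 200 genes had a shared change (2.07% of those tested), 64 higher and 136 lower, and all 26 genes named above were among them. A shared change asks for the same sign in IPO and not for a call there. For IPO alone 11 genes were called without this library, beside 22 with it. For IR alone the counts were 1361 and 1109. The genes of this paragraph were chosen after their values were seen, and with 2 sham libraries left the spread of sham rests on those 2. Of 19 lipogenesis genes 3 were called higher (Srebf1, Lpin1 and Lpin2) and 0 lower, beside 0.663% of all genes higher and 1.41% lower. Insig1, which holds the sterol sensor in the endoplasmic reticulum, had 44.9, 54.3 and 54.7 FPKM in IR livers and 29.8, 27.7 and 16.3 FPKM in IPO livers, against 9.57, 7.60 and 34.3 FPKM in sham livers, with sham replicate 3 above all IPO libraries and a log2 change without it of 1.97 (limma adjusted p = 0.00835). Srebf1, the transcription factor of lipid synthesis, had 14.8, 12.3 and 8.17 FPKM in IR livers and 9.24, 6.96 and 7.34 FPKM in IPO livers, against 2.96, 2.75 and 6.23 FPKM in sham livers, with no overlap even with the library kept, and an adjusted p of 0.0114 without it and 0.0735 with it.

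Among the falls without sham replicate 3 were genes of innate immune signalling and the acute phase. Myd88, the adaptor of Toll-like receptors, had 6.60, 7.56 and 8.03 FPKM in IR livers and 15.7, 10.7 and 10.4 FPKM in IPO livers, against 28.2, 21.8 and 9.99 FPKM in sham livers. The 2 other sham libraries were above all ischaemic ones, while sham replicate 3 was below each IPO library. Tifa, an adaptor of NF-kB signalling, had 2.57, 3.01 and 6.44 FPKM in IR livers and 77.1, 57.3 and 52.1 FPKM in IPO livers, against 181, 81.3 and 23.01 FPKM in sham livers, with a log2 change of -2.92 (limma adjusted p = 0.00891) that was mostly that of IR. Of 25 acute phase genes 11 were called lower and 0 higher, and of 26 genes of IL-1, TNF and NF-kB signalling 4 were called lower (Il1r1, Myd88, Tifa and Irak4) and 0 higher, beside 1.41% of all genes called lower and 0.663% higher in that fit. The IPO part of these falls differed in size. Saa4 had -2.49 log2 in IR and -1.30 in IPO, and Orm1 had -2.08 in IR and -0.39 in IPO. Inhbe, a hepatocyte activin subunit, had 19.3, 14.2 and 12.5 FPKM in IR livers and 8.09, 5.85 and 12.8 FPKM in IPO livers, against 71.1, 40.4 and 8.91 FPKM in sham livers, and sham replicate 3 lay in the range of the ischaemic libraries. Gdf15, a stress-induced cytokine, and Trp53inp1, a p53 target, were called higher. Gdf15 had 86.4, 178 and 173 FPKM in IR livers and 24.1, 24.8 and 44.3 FPKM in IPO livers, against 10.1, 10.9 and 32.7 FPKM in sham livers, again with sham replicate 3 inside the IPO range.

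**Figure D5:**
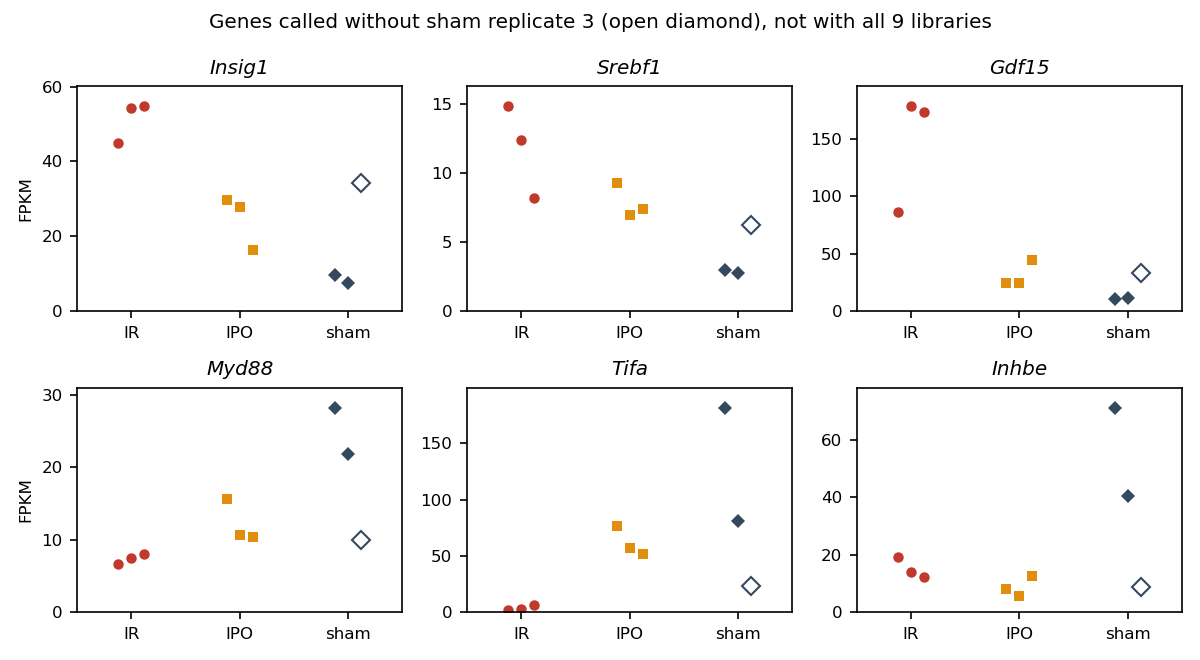
FPKM of 6 genes that were called as shared without sham replicate 3 and not with all 9 libraries, with each library as a point (IR circles, IPO squares, sham diamonds) and sham replicate 3 as an open diamond. In Myd88 and Inhbe the open diamond lies with the ischaemic libraries, away from the other sham libraries, and in Srebf1 it lies below the IPO libraries.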

How the data were processed

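RNA-seq of 9 mouse liver libraries (3 IR, 3 IPO, 3 sham) was analysed from FPKM values per gene and library, which the authors computed before they deposited them. The authors' deposited lists of differing genes give a log2 fold change between group means and were used only to count listed genes. Per the labels' protocols, RNA was extracted with Trizol and libraries were made with a stranded kit. The build is mm10, per the submitters' processing notes. The aligner, quantifier and annotation were not given in the sources used here. FPKM carries no read counts, so counting error is unknown.

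Values were transformed to log2(FPKM + 0.5) and fitted for 9649 genes with limma 3.58.1 in R 4.3.3, with values read by the package data.table (version 1.17.8). A single fit held 3 group means and a variance trend, with 6 residual and 3.56 prior degrees of freedom. Contrasts were the mean of IR and IPO minus sham, each group minus sham, and IPO minus IR, with two-sided tests and Benjamini-Hochberg adjustment over all genes tested. Fold changes on this scale understate the change of low genes. Members, lists and the naming rule were chosen with earlier results of these data known.

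The rule names the 12 largest rises and 12 largest falls without overlap at 5 FPKM or more, up to 4 called members per list, the 5 rises and 5 falls with the smallest p where IPO and IR differ, and the 5 largest opposite changes; fewer genes qualified, and the remaining genes of the 26 are named because the whole group is described. The procedure was run on simulated data with independent noise and an equal change in IR and IPO. That setting does not cover genes in which IPO and IR differ, or a single library that stands apart. Exons and sequences came from GENCODE M21. No block was used, since over 9 same-numbered pairs the residual correlations ran from -0.137 to 0.0653 and 0 exceeded 0.1.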

Additional observations from a re-analysis of the deposited data

Results flagged for a closer look

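A difference between IPO and IR, tested in the same limma fit and adjusted over all genes, was found for 20 of the 26 genes with a shared change and for the 4 genes called in opposite directions. A difference of this kind was called in 22.1% of all genes tested. The genes here were chosen by calls in the same fit, with the same estimate of spread, which favours such a difference. The log2 difference of IPO minus IR is given for each, and a value with the sign of the shared change means a larger change in IPO.

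Among the rises without overlap it was -0.545 for Gm20708, 1.57 for Tubb6, -1.33 for Nr1d1, -0.95 for Adck3, -0.714 for Arvcf, -0.918 for Klf11 and -0.476 for Lipa. Tubb6 was the one of these rises that was larger in IPO. Among the falls without overlap it was -1.03 for Tmem70, which fell further in IPO, and 1.05 for Tgm1, 0.586 for Il15ra, 0.88 for Ikzf5, 0.545 for Elac1 and 0.751 for Cyp3a13, which fell further in IR.

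Among the 7 genes in which the IPO and sham libraries overlapped it was -5.83 for Fosb, -4.28 for Cyr61, -2.51 for Otud1, -2.57 for Txnip, 4.78 for B3galt1, 1.91 for Onecut1 and 1.73 for Rsrp1. Among the genes with opposite changes it was 2.27 for Cyp2c70, -1.99 for Bcl9l, -1.6 for Csk and -1.7 for Atoh8. In the labels' descriptions all IPO libraries carry one number and all IR libraries another, so these differences cannot be told apart from that number.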

How the results depend on the processing

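The 26 genes with a shared change and the 19 of them without overlap were 23 and 17 with a pseudocount of 0.1 or with robust estimation, 24 and 18 with a pseudocount of 1, 26 and 19 with no filter, and 39 and 26 with a mean of 5 FPKM or more. They were 50 and 36 with median-of-ratios scaling (24 higher, 26 lower) and 53 and 38 with quantile normalization (21 higher, 32 lower), where 14 were higher and 12 lower as deposited; 25 of the 26 genes were kept by each. The fit of 6 libraries against 3 left 1 and 1. With a replicate block the counts were 11 and 5, with 646 called for IR against sham and 2 for IPO against sham; the replicate numbers do not pair the libraries, and 1 of the 9 libraries correlated best with its own number. Leaving out single libraries gave 1 to 200 and 1 to 164 genes. The 1109 genes of IR against sham became 650 with a mean of 5 FPKM or more, 341 when fitted on those groups only, and 310 to 1361 without single libraries. The 22 genes of IPO against sham became 1 to 26 without single libraries. The 2133 genes of IPO against IR became 1229 with a mean of 5 FPKM or more and 1085 to 2231 without single libraries. The log2 change of Afmid turned to 0.69 when its level was summed with that of Gm20708, and no other of the 26 genes with a shared change, or of the 8 with group means on opposite sides of sham, changed direction under the alternatives that tested it. Where a library was left out, its group rested on the remaining 2. The causes of these shifts were not tested, and read depth, which is unknown, limits the precision of genes at a few FPKM.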
